A study of Homo sapiens with 6 samples.

Results

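Chemokines and cytokines that liver cells can make were examined in HepG2, an established human liver cancer cell line of hepatocyte type. The 10 genes were CXCL8, CXCL1, CXCL2, CXCL3, CXCL5, CXCL16, CCL2, CCL20, IL6 and IL32, of 24241 genes measured. They were chosen by gene symbol, with the verteporfin minus DMSO values of these same arrays already known, so their values and their count past the threshold are given as a description, with no p-value and nothing read from them as support. All 10 had a probe set with 1 gene symbol. The cells had been treated for 24 hours with 0.75 µM verteporfin (3 arrays) or with the solvent DMSO as the control (3 arrays), and both groups were grown in RPMI medium. Verteporfin is a light-activated porphyrin drug that is also used to disrupt the pairing of the coactivator YAP with TEAD factors, and the labels do not say whether the cultures were kept dark. HepG2 descends from 1 tumour and is grown without the immune and stromal cells of liver tissue.

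Chemokines are small secreted proteins that draw leukocytes along a gradient by binding receptors on their surface. The CXC chemokines with a glutamate-leucine-arginine motif (CXCL8, CXCL1, CXCL2, CXCL3 and CXCL5) act on neutrophils through CXCR1 and CXCR2, and CCL2 and CCL20 draw monocytes through CCR2 and lymphocytes and dendritic cells through CCR6. Many of these genes are classic targets of NF-kB and of AP-1, and IL6 is the cytokine best known for driving the acute phase response of hepatocytes.

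The promoters are shown because the neutrophil chemokines share a κB element, the site that NF-kB binds; their signals are described further on. RefSeq promoter windows of GRCh38.p14 (250 bases before and 50 bases from the transcription start) were matched for 8 of the 10 genes. For IL32, with 2 starts in the table, the first one of the gene was taken. The stretch from 140 bases before the start to the first 10 transcribed bases is printed 5′ to 3′ on the gene's own strand, with every match to GGNNTTTCC on either strand in capitals.
CXCL8 (chr4:73740429-73740578, + strand): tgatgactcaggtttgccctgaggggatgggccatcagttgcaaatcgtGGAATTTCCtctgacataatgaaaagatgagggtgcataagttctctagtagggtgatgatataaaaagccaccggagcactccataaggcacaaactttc
CXCL1 (chr4:73869253-73869402, + strand): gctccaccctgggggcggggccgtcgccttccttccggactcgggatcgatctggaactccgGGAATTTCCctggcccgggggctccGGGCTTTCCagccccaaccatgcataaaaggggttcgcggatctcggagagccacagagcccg
CXCL2 (chr4:74099186-74099335, - strand): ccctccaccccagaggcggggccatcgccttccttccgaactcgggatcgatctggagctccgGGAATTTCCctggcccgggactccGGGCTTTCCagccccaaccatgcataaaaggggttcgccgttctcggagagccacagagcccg
CXCL3 (chr4:74038680-74038829, - strand): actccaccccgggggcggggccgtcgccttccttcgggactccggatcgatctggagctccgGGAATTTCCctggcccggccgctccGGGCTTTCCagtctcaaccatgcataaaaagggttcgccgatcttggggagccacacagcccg
CXCL5 (chr4:73998668-73998817, - strand): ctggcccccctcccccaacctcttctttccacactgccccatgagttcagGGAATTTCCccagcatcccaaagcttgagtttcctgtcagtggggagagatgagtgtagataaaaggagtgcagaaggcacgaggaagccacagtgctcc
CCL20 (chr2:227813702-227813851, + strand): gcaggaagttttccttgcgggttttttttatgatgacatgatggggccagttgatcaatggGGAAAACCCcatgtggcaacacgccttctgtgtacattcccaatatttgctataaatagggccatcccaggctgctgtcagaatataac
IL6 (chr7:22727060-22727209, + strand): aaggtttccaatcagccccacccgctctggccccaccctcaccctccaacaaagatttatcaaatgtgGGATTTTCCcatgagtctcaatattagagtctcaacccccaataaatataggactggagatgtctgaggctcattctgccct
IL32 (chr16:3065263-3065412, + strand): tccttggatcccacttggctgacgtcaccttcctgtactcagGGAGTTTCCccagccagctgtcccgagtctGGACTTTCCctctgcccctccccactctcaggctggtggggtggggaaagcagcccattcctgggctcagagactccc

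The strict form GGAATTTCC was present in the windows of 5 genes, CXCL8, CXCL1, CXCL2, CXCL3 and CXCL5, and in 0.461% of the 35116 promoter windows in the table. Its first base lay 91 bases before the start in CXCL8, 78 in CXCL1, 77 in CXCL2, 78 in CXCL3 and 90 in CXCL5. The looser form GGNNTTTCC, which includes the strict one, was present in 8 of 8 windows and in 6.26% of all windows. The aligned windows of CXCL1 and CXCL3 were 82.5% identical, those of CXCL2 and CXCL3 73.8% and those of CXCL1 and CXCL2 71.9%, while those of CXCL8 and CXCL1 were 45.2% identical.

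An AP-1 match (TGANTCA, 7.71% of all windows) was found in 1 gene, CXCL8, as TGACTCA starting 137 bases before the start. C/EBP matches (TTNNGNAA, 36.8% of all windows) lay in CXCL2 and IL6, and TEAD matches (GGAATG, 14% of all windows) in CCL20 and IL32. Both strands were searched for each motif. These are matches of letters, so a site that departs from them is missed, and a window without a match may still hold one. Occupancy was not measured here.

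**Figure D1:**
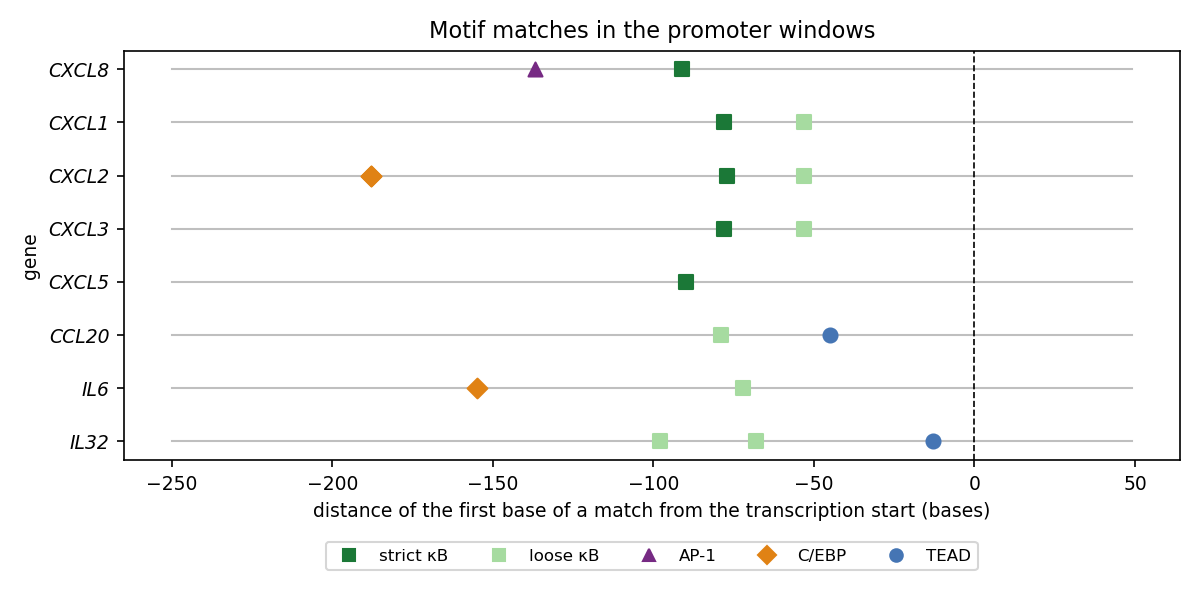
Motif matches in the RefSeq promoter windows of 8 genes, drawn by the distance of the first base of each match from the transcription start (dashed line), in bases. Strict κB matches (dark squares) sit between 91 and 77 bases before the start in the 5 neutrophil chemokine genes, and the AP-1 triangle is in CXCL8.

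The signal of a gene is its RMA value on the log2 scale. No detection calls were used, so 2 marks describe the low end of signal. One is the median of all probe sets, 4.83 on each array, and the other is the 95th percentile of the group means of 354 olfactory receptor genes, 4.81 for verteporfin and 4.68 for DMSO. A group mean under the olfactory mark is called near the low end. Both olfactory marks lay close to the median, so a large share of all genes is near the low end by this mark. Means of 4.80 with verteporfin and 4.65 with DMSO, just under the marks, were at percentiles 49.3 and 46.7 of all genes. At least these shares of all genes were thus near the low end in each group, and they stand beside every such count below. By this mark 6 of the 10 genes (CXCL1, CXCL2, CXCL3, CXCL5, CCL2 and IL6) were near the low end in both groups. The other 4 (CXCL8, CXCL16, CCL20 and IL32) were above it in both groups.

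Hepatocyte-derived transcripts were abundant, and their mean signal over 9 markers was 10.15 to 10.34 on the verteporfin arrays and 11.94 to 11.96 on the DMSO arrays. For all 9 markers the verteporfin arrays were below the DMSO arrays without overlap, and 8 of the 9 passed as lower (limma). Among all genes, 39.1% did not overlap in either direction and 14.3% passed as lower. Of 7 leukocyte markers, 5 were near the low end in both groups, among them the pan-leukocyte gene PTPRC (3.44 in verteporfin and 3.48 in DMSO). LYZ (11.91 in verteporfin and 13.24 in DMSO) and CD68 (10.49 and 10.23) were high in both groups. LYZ passed as lower and CD68 as higher (limma). The mean signal over the 7 markers, which includes these 2, was 5.92 to 6.03 on the verteporfin arrays and 6.14 to 6.19 on the DMSO arrays. All 4 endothelial markers and 4 of 5 stellate or fibroblast markers were near the low end in both groups. Their mean signals were 4.01 to 4.19 and 4.46 to 4.54 on the verteporfin arrays, and 4.11 to 4.17 and 4.55 to 4.56 on the DMSO arrays. The part of the hepatocyte marker shift in the differences given below was not tested, and fewer cells expressing a gene and less RNA per cell cannot be told apart in bulk RNA.

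CXCL8 stood out among the chemokines, with a signal 6.47-fold higher in verteporfin-treated cells. CXCL16 and IL32 were higher by less, CCL20 was at a high level in both groups, and the remaining 6 genes stayed near the low end with and without the drug. Over all genes 28.5% passed an adjusted p threshold of 0.05 (limma), 14.3% as higher and 14.3% as lower. Of the 10 genes, 3 (CXCL8, CXCL16 and IL32) passed as higher and 0 as lower. At an unadjusted p under 0.05 these counts were 4 and 0, and the share of all genes at that threshold is not given here. The 3 verteporfin arrays did not overlap the 3 DMSO arrays for 5 of the 10 genes, all higher, against 39.1% of all genes in either direction. Because the genes were chosen with this contrast known, nothing is read from these counts.

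**Figure D2:**
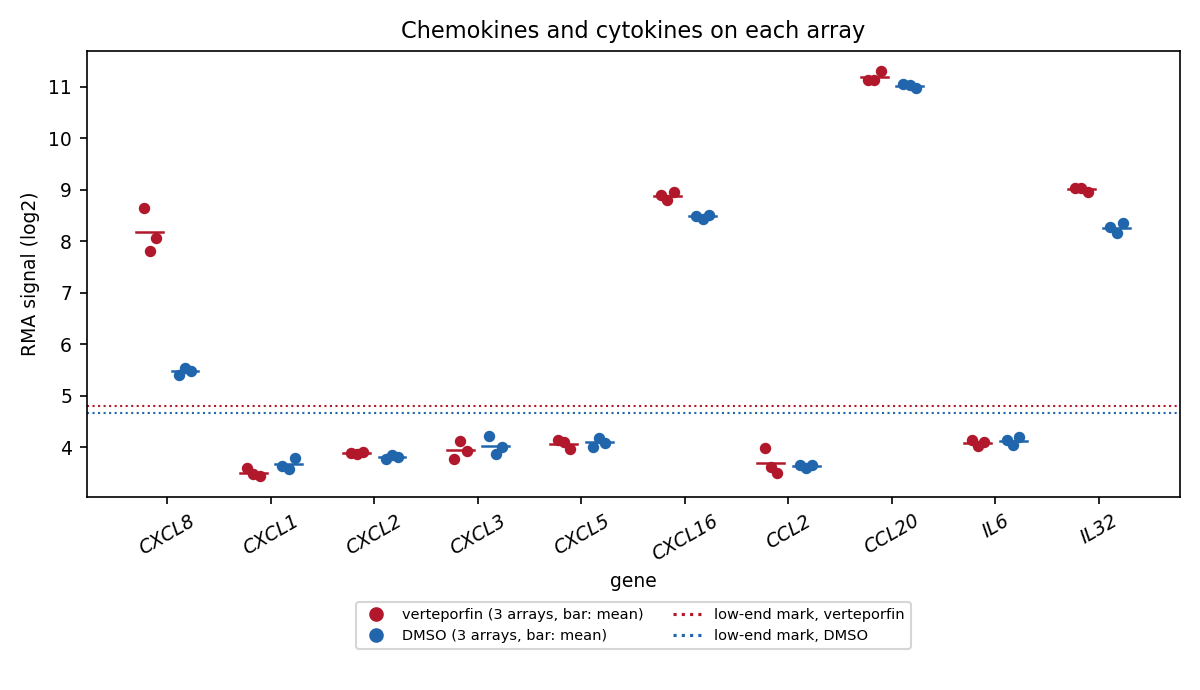
RMA signal (log2, vertical axis) of the 10 genes on each array, verteporfin in red and DMSO in blue, with a bar at each mean and dotted lines at the low-end marks of 4.81 and 4.68. CXCL8, CXCL16, CCL20 and IL32 lie above the marks on every array, and the other 6 genes lie below them on every array.

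CXCL8, the main neutrophil attractant of human cells, had signals of 8.64, 7.80 and 8.07 on the verteporfin arrays, against 5.41, 5.54 and 5.49 on the DMSO arrays. The lowest verteporfin array was thus well above the highest DMSO array. The difference was 2.69 ± 0.19 log2 units (n = 3 arrays in each group; errors of differences are moderated SEs throughout). The verteporfin arrays varied more (SD 0.43) than the DMSO arrays (SD 0.07), and without verteporfin replicate 1, the highest array, the difference was 2.46. In rank, CXCL8 was at percentile 79.9 of all genes with verteporfin, against percentile 57.3 with DMSO.

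The other neutrophil chemokines were near the low end in both groups. CXCL1, a ligand of CXCR2, had signals of 3.60, 3.48 and 3.44 on the verteporfin arrays, against 3.64, 3.59 and 3.79 on the DMSO arrays. These groups overlapped, with a difference of -0.17 ± 0.08. CXCL2, a close homologue, had 3.90, 3.88 and 3.91 with verteporfin, against 3.77, 3.85 and 3.81 with DMSO, and here the groups did not overlap although the difference was 0.09 ± 0.06. CXCL3, the third of these homologues, had 3.78, 4.13 and 3.93 with verteporfin, against 4.21, 3.87 and 4.01 with DMSO (difference -0.08 ± 0.12). CXCL5, an epithelial chemokine for neutrophils, had 4.14, 4.11 and 3.98 with verteporfin, against 4.02, 4.19 and 4.09 with DMSO (difference -0.03 ± 0.08). CXCL3 and CXCL5 overlapped between the groups, and all 4 genes were below both low-end marks on every array, so a change of these transcripts below the range of the arrays could not be seen. CXCL1, CXCL2 and CXCL3 are close copies of each other, and probes may share signal between them.

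CXCL8, CXCL1, CXCL5, CXCL3 and CXCL2 lie in 1 stretch of chromosome 4. In the RefSeq order of GRCh38.p14, 9 protein-coding genes run from CXCL8 to CXCL2, and all 9 were measured: CXCL8, CXCL6, PF4V1, CXCL1, PF4, PPBP, CXCL5, CXCL3 and CXCL2. This stretch was chosen after the values were seen. In both groups, 7 of the 9 were near the low end, the exceptions being CXCL8 and the platelet chemokine PF4. CXCL6, the gene next to CXCL8 in this order and also a neutrophil chemokine, averaged 4.23 ± 0.30 with verteporfin and 4.25 ± 0.13 with DMSO (SD). PF4 averaged 6.03 ± 0.19 with verteporfin and 5.70 ± 0.19 with DMSO (SD), a difference of 0.34 ± 0.13 that did not pass (adjusted p = 0.0945, limma).

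CXCL16 is made as a membrane protein whose chemokine domain is shed and binds CXCR6 on T cells and natural killer T cells. Its signals were 8.90, 8.80 and 8.95 on the verteporfin arrays, against 8.49, 8.44 and 8.52 on the DMSO arrays. The groups did not overlap, and the difference of 0.40 ± 0.07 was a 1.32-fold higher signal.

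CCL20, the ligand of CCR6, had signals of 11.13, 11.13 and 11.30 on the verteporfin arrays, against 11.05, 11.03 and 10.96 on the DMSO arrays. Every verteporfin array was above every DMSO array, but by little: the difference was 0.17 ± 0.07. Its probe set was at percentile 98.5 of all genes with verteporfin and 98.1 with DMSO. CCL2, the monocyte chemokine, had 3.99, 3.62 and 3.51 with verteporfin, against 3.65, 3.59 and 3.66 with DMSO. These arrays overlapped near the low end (difference 0.07 ± 0.12), with verteporfin replicate 1 the highest of the 6.

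IL32, a cytokine of human cells that promotes the release of other inflammatory cytokines, had signals of 9.03, 9.04 and 8.96 on the verteporfin arrays, against 8.27, 8.16 and 8.35 on the DMSO arrays. The groups were clearly apart, with a difference of 0.75 ± 0.07 or a 1.68-fold higher signal. IL6 had 4.15, 4.03 and 4.10 with verteporfin, against 4.15, 4.05 and 4.20 with DMSO. Its arrays overlapped near the low end, with a difference of -0.04 ± 0.07.

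**Figure D3:**
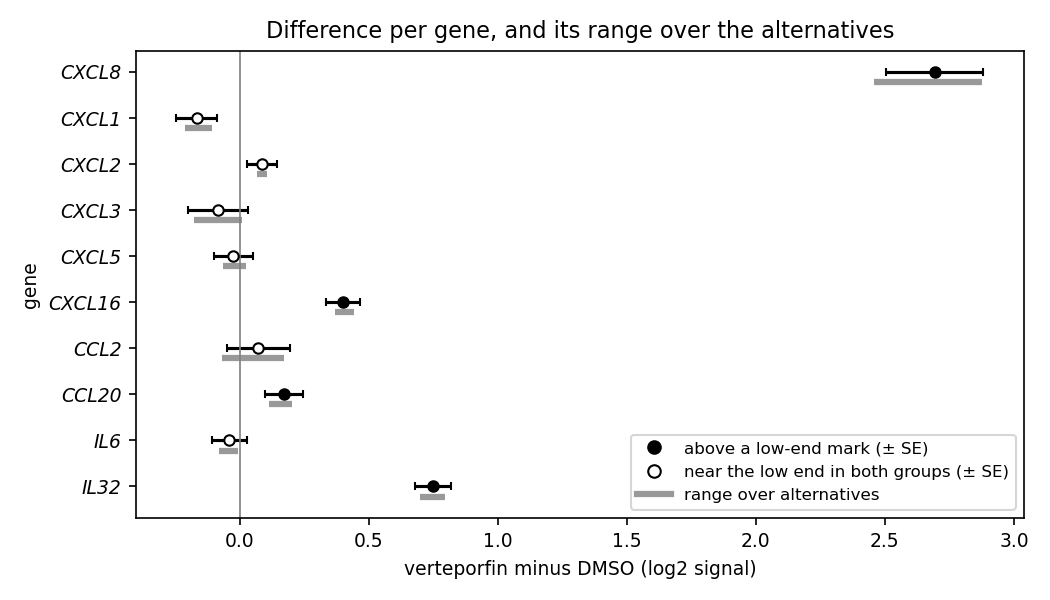
Difference in log2 signal, verteporfin minus DMSO (horizontal axis), for each gene, with the moderated SE as an error bar and the range over alternative analyses as a grey bar; open points are near the low end in both groups. CXCL8 lies at 2.69 with a range of 2.46 to 2.88, IL32 at 0.75 and CXCL16 at 0.40, and the 6 open points lie between -0.17 and 0.09.

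Beyond these 10 genes, 147 of 155 genes in 10 lists of related ligands, receptors and regulators were measured and tested with limma over all genes. Of these, 37 passed as higher and 20 as lower, beside 14.3% in each direction over all genes, with a median difference of 0.06 against 0.005 for all genes. The same 14.3% in each direction stands beside the count of every list below at the adjusted threshold. For the counts at an unadjusted p no share of all genes is given, and nothing is read from them. The lists were written with earlier results of these arrays known.

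Most other chemokines were near the low end, as were at least 49.3% of all genes with verteporfin and 46.7% with DMSO. Of 11 other CXC chemokines, 9 were near it in both groups, and 0 passed as higher or lower (limma; 1 higher and 0 lower at an unadjusted p under 0.05). The list median was 0.01. CXCL17, a mucosal chemokine, averaged 4.56 ± 0.07 with verteporfin and 4.75 ± 0.16 with DMSO (SD; adjusted p = 0.195). Of 22 other CC, XC and CX3C chemokines, 14 were near the low end in both groups, 2 fell and 0 rose (2 and 0 at an unadjusted p under 0.05), with a median of -0.003.

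The 2 that fell were expressed in DMSO-treated cells. CX3CL1, or fractalkine, a membrane-bound chemokine like CXCL16, had signals of 7.27, 7.96 and 7.74 on the verteporfin arrays, against 9.82, 9.85 and 9.97 on the DMSO arrays. It fell by 2.22 ± 0.16, a 4.67-fold lower signal (adjusted p = 3.74e-05). CCL16, a chemokine made mainly by liver, had 5.70, 5.94 and 6.12 with verteporfin, against 7.89, 7.84 and 7.79 with DMSO, a change of -1.92 ± 0.11 (adjusted p = 1.07e-05). In both genes all 3 verteporfin arrays were below all 3 DMSO arrays, the opposite side from CXCL8, CXCL16 and IL32.

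Of 21 chemokine receptors, 15 were near the low end in both groups, 2 fell and 0 rose (3 and 0 at an unadjusted p under 0.05), with a median of 0.03. CCR6, the receptor of CCL20, averaged 5.24 ± 0.09 with verteporfin and 5.82 ± 0.08 with DMSO (SD) and fell by 0.58 ± 0.07 (adjusted p = 0.000598). ACKR2, a decoy receptor that clears CC chemokines, fell by 0.34 ± 0.11 (adjusted p = 0.0448), a call lost in 5 of 10 alternative analyses (adjusted p up to 0.141). The receptors of other members were named after their values were seen: CXCR1, CXCR2, CXCR6 and CCR2 averaged 3.74, 3.70, 4.46 and 3.69 with verteporfin and 3.68, 3.78, 4.37 and 3.79 with DMSO. All 4 of these were near the low end in both groups and did not pass.

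**Figure D4:**
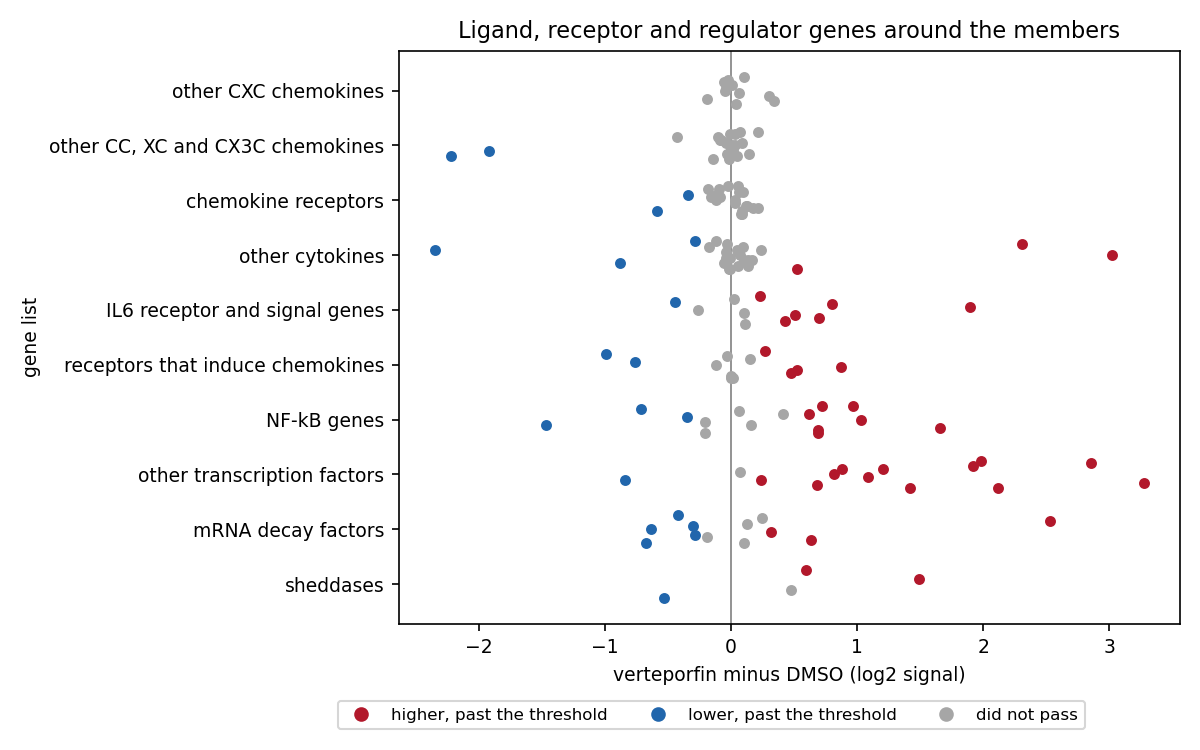
Difference in log2 signal, verteporfin minus DMSO (horizontal axis), for 147 genes in 10 lists, 1 point per gene; red points passed as higher, blue as lower and grey did not pass, and the vertical offset within a list has no meaning. The chemokine and chemokine receptor lists hold no red point, and the transcription factor list holds 12 red points and 1 blue point.

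Among 25 other cytokines, 3 rose, 3 fell and 19 did not pass, with 14 near the low end in both groups and a list median of 0.04. EBI3, named after its values were seen, is among those that fell (adjusted p = 0.0491, limma). It was near the low end in both groups (4.05 with verteporfin and 4.33 with DMSO), so its call says little about the transcript. IL11 and LIF belong to the IL6 family, whose members signal through the shared receptor chain encoded by IL6ST. IL11 had signals of 10.26, 9.75 and 9.94 on the verteporfin arrays, against 6.76, 6.95 and 7.18 on the DMSO arrays. LIF had 8.38, 8.15 and 8.53 with verteporfin, against 6.04, 6.02 and 6.07 with DMSO. Both genes were higher on every verteporfin array than on any DMSO array, by 3.02 ± 0.15 for IL11 (8.11-fold, adjusted p = 6.88e-06) and by 2.31 ± 0.10 for LIF (4.96-fold, adjusted p = 3.52e-06), whereas IL6 itself stayed near the low end.

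TNFSF10, the death ligand TRAIL, had 4.72, 4.75 and 5.29 with verteporfin, against 7.23, 7.32 and 7.28 with DMSO. It fell by 2.35 ± 0.15 in measured signal, and 2 of its 3 verteporfin arrays were below the low-end mark, so the size of the change in transcript is not given by this value. IL7, a growth factor of lymphocytes, averaged 5.08 ± 0.13 with verteporfin and 5.96 ± 0.04 with DMSO (SD) and fell by 0.88 ± 0.08.

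Of 11 genes of the IL6 receptor and its signal, 6 rose and 1 fell, with a median of 0.23. The 14.3% of all genes in each direction is a low comparison here, because 0 of the 11 were near the low end in both groups. IL6R, which encodes the IL6-binding chain, averaged 9.05 ± 0.06 with verteporfin and 8.25 ± 0.07 with DMSO (SD) and rose by 0.80 ± 0.07. IL6ST, the shared signal chain, averaged 11.33 ± 0.05 with verteporfin and 10.82 ± 0.04 with DMSO and rose by 0.51 ± 0.06. The receptor-associated kinase JAK2 had 7.95, 7.53 and 7.68 with verteporfin, against 5.61, 5.98 and 5.89 with DMSO, and rose by 1.89 ± 0.13 (3.72-fold, adjusted p = 3.13e-05). STAT3, the transcription factor that this receptor activates, averaged 9.98 ± 0.04 with verteporfin and 10.43 ± 0.03 with DMSO and fell by 0.45 ± 0.06.

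**Figure D5:**
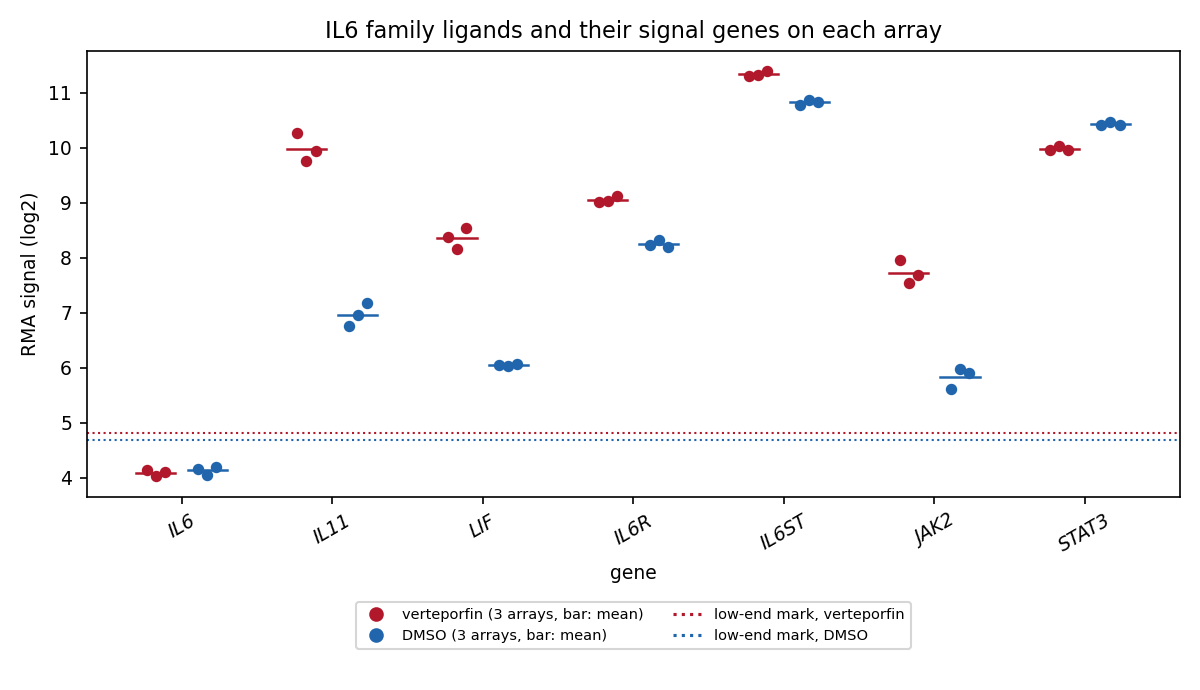
RMA signal (log2, vertical axis) of IL6, its family members IL11 and LIF, and genes of their receptors and signal on each array, verteporfin in red and DMSO in blue, with a bar at each mean and dotted lines at the low-end marks. IL6 lies below the marks in both groups, IL11 averages 9.98 with verteporfin and 6.96 with DMSO, and STAT3 alone of the 7 genes shown is above the marks and lower with verteporfin.

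Of 12 receptors and adaptors that can induce chemokines, 4 rose and 2 fell, with a median of 0.01. The TNF receptor TNFRSF1A averaged 9.38 ± 0.06 with verteporfin and 8.50 ± 0.01 with DMSO (SD) and rose by 0.87 ± 0.06, and the lymphotoxin receptor LTBR and the interleukin-17 receptor chain IL17RC rose by 0.47 ± 0.06 and 0.53 ± 0.08. MYD88, the adaptor of Toll-like and interleukin-1 receptors, averaged 8.86 ± 0.18 with verteporfin and 9.85 ± 0.13 with DMSO and fell by 0.99 ± 0.11. The list thus moved in both directions.

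NF-kB genes moved both ways, with 7 of 15 higher, 3 lower and a median of 0.41. Beside the subunit NFKB2 and the inhibitor TNFAIP3, which changed by 1.66 ± 0.18 and -1.47 ± 0.09, the inhibitors NFKBIB (1.03 ± 0.06) and NFKBIE (0.69 ± 0.08) rose. The inhibitor NFKBIA, named after its values were seen, went the other way. It averaged 9.92 ± 0.14 with verteporfin and 10.63 ± 0.09 with DMSO (SD), a change of -0.72 ± 0.09. Of 14 other transcription factors that are known to bind cytokine promoters, 12 rose and 1 fell, beside 14.3% of all genes in each direction, with a median of 1.15. In both this list and the NF-kB list 0 genes were near the low end in both groups, so that share is a low comparison for them. FOSL1, an AP-1 subunit, averaged 9.65 ± 0.11 with verteporfin and 7.73 ± 0.16 with DMSO (SD) and rose by 1.92 ± 0.10. CEBPB, which was first described as a factor for the IL6 promoter, averaged 8.80 ± 0.14 with verteporfin and 6.82 ± 0.11 with DMSO and rose by 1.98 ± 0.09. EGR1 rose by 2.86 ± 0.10. DDIT3 was higher by 3.28 ± 0.17 in measured signal, but its DMSO mean (4.15) was near the low end, so this value does not give the size of the change in transcript.

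The 5 genes whose 6 values, each centred on the gene's DMSO mean, were closest to those of CXCL8 were LIVAR, the growth factor FGF2, the membrane receptor gene PAQR5, the RNA-binding protein gene CPEB4 and the phospholipase gene PNPLA8. Their Euclidean distances over 6 arrays were 0.257, 0.275, 0.340, 0.385 and 0.394 log2 units. The differences of these 5 genes were 2.79 ± 0.21, 2.70 ± 0.17, 2.76 ± 0.11, 2.53 ± 0.12 and 2.61 ± 0.11 in measured signal. The DMSO means of LIVAR (4.11) and FGF2 (4.39) were near the low end, so for these 2 the value is no size of a change in transcript, and the 5 genes are not ranked. The same measure for CXCL1, the member with the lowest difference, named LZTS1, LSM12, PIRT, CREB3L2 and SNAI3 (distances 0.0533 to 0.0869), none of which passed. With CXCL1 itself near the low end, that likeness is one of small deviations.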

How the data were processed

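Total RNA of 6 HepG2 samples was hybridised to Affymetrix arrays, 1 per sample, and groups and replicate numbers came from the titles. The deposited values are log2 signals. RMA is the tool in the submitters' processing notes, where its version, the array model and a genome build are not given. Once sorted, the arrays hold identical values (largest difference 0), so changes are relative to each array's distribution. Of 25582 probe sets, 24244 had 1 symbol, 0 several and 1338 none; for 3 symbols with several probe sets the one with the highest mean was kept, leaving 24241 genes. The test was limma 3.58.1 (lmFit and eBayes, R 4.3.3) on every gene, two-sided, adjusted by Benjamini-Hochberg over all genes, threshold 0.05. Precision is limited by the number of arrays. The labels do not name separate cultures, so a p-value measures only the spread among these samples, possibly a technical one.

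The 10 genes, the 10 lists and the alternatives were chosen with earlier results of these data known. Of each list, up to 4 genes with the smallest adjusted p among those that passed and whose groups did not overlap are named, or up to 2 with the highest mean where none passed, and 5 genes closest in pattern to the members with the highest and lowest difference; others are marked. Genes of the lists and markers without a probe set were not analysed here. Promoter windows were aligned with Biopython 1.88 (global, match 1, mismatch -1, gap -2 and -0.5). Taken over all genes, arrays with the same replicate number did not deviate together (correlations of deviations from the group means -0.02, -0.11 and -0.01), so the numbers were not used as pairs. Single genes may still share a pattern by replicate number. Alternatives left out each array in turn, added the replicate number, used trend and robust variance estimation, left out genes below the median signal, or centred each array on brighter genes.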

Additional observations from a re-analysis of the deposited data

How the results depend on the processing

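Under 10 alternative analyses the count of genes past the threshold lay between 5974 and 7054, against 6916 as reported. With the replicate block it was 6359, and 3 of the 10 chemokine and cytokine genes passed as higher, as they did without it. Without each array in turn, 3 of the 10 passed as higher and 0 as lower. With trend and robust variance estimation 4 passed, CCL20 being the additional one. The difference of CXCL8 ranged from 2.46 to 2.88, that of CXCL16 from 0.37 to 0.44 and that of IL32 from 0.70 to 0.79. The differences of CXCL3 (-0.18 to 0.01), CXCL5 (-0.07 to 0.02) and CCL2 (-0.07 to 0.17) took either sign without passing. Of the 147 related genes, 33 to 40 were higher and 17 to 21 lower. Over the 43 named genes, calls changed for 4: ACKR2 was lost in 5 alternatives, and CCL20, CXCL17 and PF4 were gained in 1 each (adjusted p 0.035, 0.0324 and 0.0392). The causes were not tested. Signal near the low end limits what can be seen for CXCL1, CXCL2, CXCL3, CXCL5, CCL2 and IL6.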

Other observations

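Factors that act on cytokine mRNA after transcription moved both ways. Of 12 mRNA decay factors and related RNA-binding proteins, 3 rose and 5 fell, with a median difference of -0.05. ZFP36, which binds AU-rich elements of cytokine mRNAs and speeds their decay, had signals of 8.98, 8.75 and 8.92 on the verteporfin arrays, against 6.34, 6.17 and 6.55 on the DMSO arrays, and the groups were far apart. ZC3H12A, the endonuclease Regnase-1 that cuts IL6 mRNA, averaged 8.05 ± 0.05 with verteporfin and 7.42 ± 0.02 with DMSO (SD, n = 3 arrays per group) and rose by 0.63 ± 0.06 (SE). ZFP36L2, a relative of ZFP36, fell by 0.67 ± 0.07, and TIA1, a translational silencer of cytokine mRNAs, fell by 0.64 ± 0.06.

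Genes for shedding of membrane-bound chemokines and receptors also differed. Of 4 sheddase genes, 2 rose and 1 fell, with a median of 0.53. ADAM17, the protease that releases TNF and cleaves CX3CL1 and the IL6 receptor, had signals of 10.53, 10.21 and 10.22 on the verteporfin arrays, against 8.85, 8.84 and 8.81 on the DMSO arrays, and rose by 1.49 ± 0.09, a 2.81-fold higher signal (adjusted p = 1.95e-05, limma). RHBDF2, which escorts ADAM17 to the cell surface, averaged 8.45 ± 0.09 with verteporfin and 7.86 ± 0.03 with DMSO and rose by 0.59 ± 0.07. ADAM10, which sheds CXCL16, averaged 10.18 ± 0.13 with verteporfin and 10.71 ± 0.06 with DMSO and fell by 0.53 ± 0.08. These are transcript signals, and protein or shedding was not measured here.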
